A study of Mus musculus with 20 samples.

Results

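The 38 genes described here encode core parts of the machinery that copies DNA and divides a cell. They comprise 7 genes for cyclins and Cdk1, 2 for inhibitors of cyclin-dependent kinases, 3 for transcription factors, 11 for DNA replication, 8 for mitotic kinases and the spindle checkpoint, 5 for kinetochore proteins and motors, and the proliferation markers Mki67 and Top2a. They are a list of gene symbols, which was drawn up with earlier results of these data known. Each symbol matched 1 of the 25444 loci in the tables, which carry 24423 different symbols, and all 38 passed the filter on low counts that 13704 genes passed.

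The livers came from mice of the inbred strains C57BL/6N (B6) and C3H/HeN (C3), which differ in how often liver tumors arise with age. RNA-seq was run on the left lateral lobe of 20 livers taken at 20 weeks of age, from 5 females (F) and 5 males (M) of each strain. No transgene or treatment is given for any group, and all mice were housed singly. The sexes were kept in separate rooms, so an effect of sex and an effect of the room cannot be told apart. The comparisons ask how cell cycle gene expression differed between the sexes within a strain, between the strains within a sex, and whether the sex difference depended on strain.

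In an adult liver most hepatocytes rest outside the cell cycle, and they re-enter it when tissue is lost. D-type cyclins release E2F transcription factors from the retinoblastoma family, and E2F factors switch on replication genes. Genes of late G2 phase and mitosis are controlled through other elements of their promoters, the CCAAT box and the cell cycle genes homology region, with Foxm1 among the factors that act there.

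Total counts per library lay between 27370921 and 46835745, and they differed with the sequencing pool: 5 livers of pool 2 had 27370921 to 31280663 counts, 8 of pool 1 had 33107889 to 36673533, and 7 of pool 3 had 38928480 to 46835745. Across the 40 pairs of livers of the same group the correlation of expression across genes was between 0.972 and 0.993, and the chi-square per degree of freedom of their counts was 20.4 to 194, where sampling noise alone gives about 1. The hepatocyte gene Alb averaged 92547 CPM (counts scaled to a common library size), and the summed level of 8 hepatocyte markers ranged from 76995 to 161210 CPM, so liver identity was plain in every library. The hemoglobin loci were listed at 0 in every liver and give no check of blood content. No member had a count of 0 in any liver, and 14 of the 760 values lay at or under 3 counts, spread over 5 members.

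The members covered a wide range of levels. Levels of different genes are compared here on the TPM scale, which corrects counts for gene length and library size. Ccnd1, which encodes cyclin D1, was the highest, with a mean of 34.8 TPM over the 20 livers and a range of 8.17 to 107. Pcna, the sliding clamp of DNA polymerases, followed with 30.0 TPM (22.0 to 44.4), and Mcm7, a subunit of the replicative helicase, with 13.0 TPM (10.8 to 16.2). Every other member averaged 4.86 TPM or less. The inhibitor Cdkn1a stood at that value and Mcm3 at 4.07 TPM.

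Genes of mitosis were at the low end. The mean was 1.43 TPM for Top2a, the topoisomerase that untangles chromosomes, 1.33 TPM for Mki67, which codes for the Ki-67 antigen, 0.662 TPM for Cdk1, the kinase that starts mitosis, 0.326 TPM for its partner Ccnb1 (cyclin B1), and 0.122 TPM for the checkpoint kinase Bub1, the lowest of the 38. At these levels counting error is large: Bub1 had 1 to 27 counts per liver and Ccnb1 1 to 37, against 550 to 6637 for Ccnd1.

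**Figure D1:**
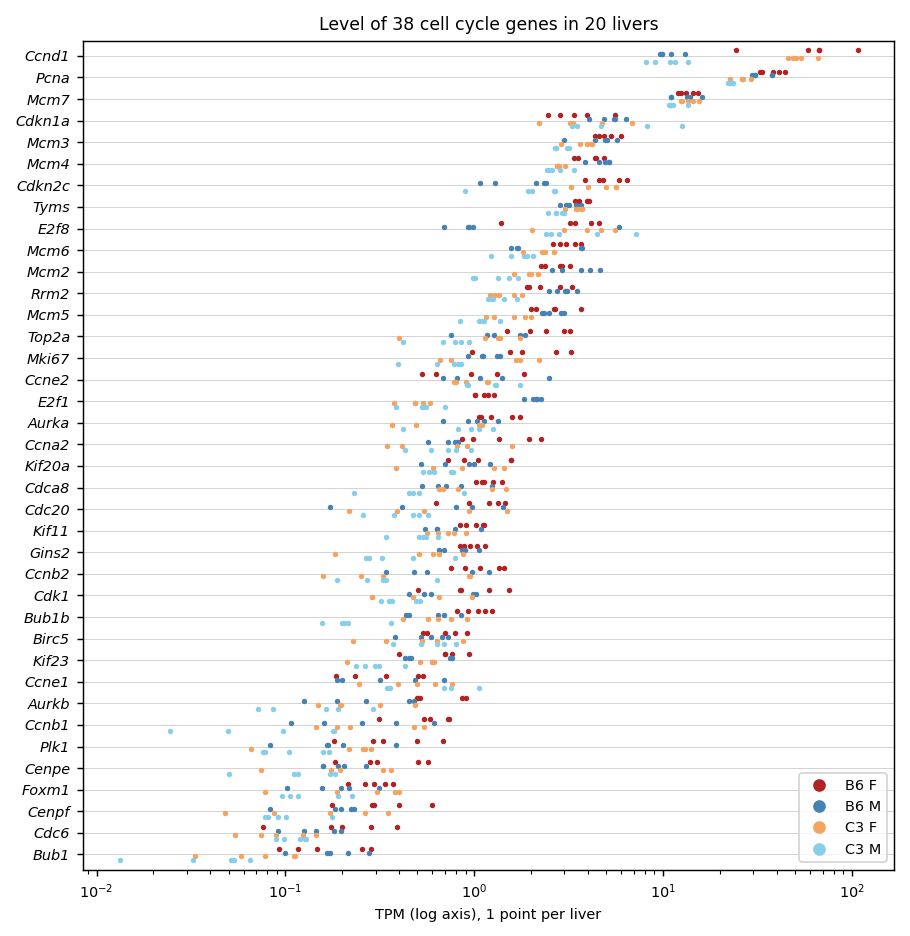
TPM of each cell cycle gene (rows, ordered by mean) in each of the 20 livers, on a log axis; each point is 1 liver, colored by group. Ccnd1, Pcna and Mcm7 lead, mitotic genes lie mostly under 1.5 TPM, and the Ccnd1 points of the females lie apart from those of the males.

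Cyclin D1 was the member with the greatest difference between the sexes. Ccnd1 lies at chr7:152115836-152125830 on the minus strand (mm9), and its product starts the passage from G1 towards S phase as the partner of Cdk4 and Cdk6. In B6 females its level was 97.6, 112, 42.9, 119 and 181 CPM, and in B6 males 24.5, 18.1, 18.4, 17.6 and 20.9 CPM. In C3 females it was 91.4, 93.2, 80.1, 92.3 and 119 CPM, and in C3 males 22.7, 15.8, 21.5, 17.7 and 26.3 CPM. Every female liver was above every male liver of its strain, and the B6 females were spread most widely, from the liver at 42.9 to the liver at 181 CPM.

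Female Ccnd1 was 5.48-fold the male level in B6 (95% interval from the SE 3.91 to 7.68, log2 fold change 2.45, SE 0.25, edgeR adjusted p = 6.2e-07) and 4.61-fold in C3 (3.27 to 6.48, log2 2.20, SE 0.25, adjusted p = 2.8e-06). Within single sequencing pools B6 livers gave log2 ratios of means of 0.81 to 2.94 and C3 livers 1.9 to 2.5. Here and below, each mean within a pool is over only 1 or 2 livers of a group. The ratio of 0.81 is 1 female against 1 male. No strain difference of Ccnd1 passed. C3 against B6 gave a log2 fold change of -0.20 in females (SE 0.23, edgeR adjusted p = 0.54) and 0.05 in males (SE 0.25, adjusted p = 0.9). In this tissue-level measurement, a different number of cells that express a gene and a different amount of RNA in each cell cannot be told apart.

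For the other cyclins and Cdk1 no sex difference passed, and they were not tested against cyclin D1. None of Ccne1 and Ccne2, which encode the E cyclins of S phase entry, Ccna2 (cyclin A2), Ccnb1 and Ccnb2 (B cyclins) and Cdk1 passed an adjusted p of 0.05 between the sexes in either strain. Their log2 fold changes, female against male, lay between -0.44 (Ccne2) and 0.82 (Ccnb1) in B6. In C3 they lay between -0.55 (Ccne1) and 1.38 (Ccnb1, SE 0.58).

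Cdkn2c encodes p18, an inhibitor of the kinases that cyclin D1 activates, and lies at chr4:109333481-109339361 on the minus strand (mm9). Its level was 6.37, 5.81, 5.06, 4.06 and 4.58 CPM in B6 females and 2.34, 1.19, 2.60, 2.54 and 1.44 CPM in B6 males. C3 females had 5.35, 5.85, 5.87, 4.50 and 3.48 CPM, and C3 males 3.13, 2.22, 1.05, 2.35 and 3.03 CPM. The sexes did not overlap in either strain.

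Cdkn2c was higher in females by 1.38 on the log2 scale in B6 (SE 0.16, adjusted p = 2.5e-06) and by 1.11 in C3 (SE 0.16, adjusted p = 4.5e-05), and the within-pool log2 ratios ran from 1.11 to 1.71 and from 0.80 to 1.32. The gene also differed between pools (pool 1 against pool 3, log2 -0.64, adjusted p = 0.00044), and without a pool term in the model its adjusted p was 0.0011 in B6 and 0.0052 in C3, above the 0.001 used for calls. Cdkn1a, which encodes the inhibitor p21, was lower in females by point estimate in both strains (log2 -0.70 in B6 and -0.61 in C3) but did not pass 0.05 (adjusted p = 0.1 and 0.15). It was variable: the C3 males ranged from 3.43 to 13.3 CPM.

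E2f1, the activator of replication genes, moved with both sex and strain and had the smallest adjusted p of all members. The gene lies at chr2:154385136-154395628 on the minus strand (mm9). Its level was 1.61, 1.53, 1.45, 1.84 and 1.39 CPM in B6 females, and 2.79, 3.46, 3.13, 3.13 and 3.28 CPM in B6 males. C3 livers were lower, with 0.859, 0.687, 0.537, 0.751 and 0.780 CPM in females and 0.890, 0.835, 0.869, 1.12 and 0.607 CPM in males. The B6 sexes did not overlap and every C3 liver was below every B6 liver, whereas the C3 sexes overlapped.

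In B6 the female level of E2f1 was lower by a log2 fold change of -1.01 (SE 0.13, adjusted p = 1.3e-05), while in C3 the change was -0.30 (SE 0.16, adjusted p = 0.15). The difference between these sex effects, a log2 of 0.71 (SE 0.21), had an adjusted p of 0.08 and did not pass. Against B6, E2f1 in C3 was 2.18-fold lower in females (log2 -1.13, SE 0.15, adjusted p = 1.1e-05) and 3.57-fold lower in males (log2 -1.83, SE 0.14, adjusted p = 1.1e-08). The within-pool log2 ratios between the strains ran from -1.36 to -0.75 in females and from -1.98 to -1.49 in males.

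E2f8 encodes an E2F factor that represses its targets. Males of B6 had 1.25, 10.7, 1.69, 1.70 and 1.72 CPM, so that 1 liver stood far above the other 4, and males of C3 had 8.47, 13.5, 5.39, 4.56 and 4.82 CPM. With all livers, C3 against B6 in males gave a log2 fold change of 1.20 (SE 0.47, adjusted p = 0.057). Without the B6 male at 10.7 CPM it was 2.08 (adjusted p = 5e-04), which would be called. Foxm1, the activator of mitotic genes, was higher in C3 females than in C3 males at the 0.05 limit (log2 0.84, SE 0.33, adjusted p = 0.049). Its locus overlaps 4933413G19Rik on the same strand, and reads that overlap both were not counted.

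By the rule of an adjusted p under 0.001 and a log2 fold change over 0.5 in either direction, 3 of 38 members were called between the sexes in B6: Ccnd1 and Cdkn2c were higher and E2f1 was lower in females. Among all genes tested 6.34% were called. At an adjusted p under 0.05 the number was 7, against 34.6% of all genes, with Aurkb (log2 0.99) and Bub1b (0.66) also higher and Mcm2 (-0.50) and Mcm4 (-0.33) also lower in females. In C3 the rule also called 3 of 38, Ccnd1, Cdkn2c and Bub1b, all higher in females, against 6.9% of all genes (4.11% higher and 2.79% lower). At 0.05 the number was 6, all higher in females, against 40% of all genes (20.1% higher and 19.9% lower), with Mki67 (log2 0.94), Foxm1 (0.84) and Mcm2 (0.52) added. The shares of members called were near or below those of all genes.

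Female and male livers did not overlap for 2 members that were higher in B6 females (5.78% of all genes) and 1 that was lower (5.1%), and for 3 that were higher in C3 females (7.38%), with 0 that were lower there (5.68%). The median log2 fold change of the 38 was 0.30 in B6 and 0.39 in C3, against 0.00 and 0.01 for all genes, and 28 of the 38 were above 0 in each strain, against 50.2% and 51.9% of all genes. Among the mitotic kinase and checkpoint genes 7 of 8 were above 0 in B6 and 6 of 8 in C3, and all 5 kinetochore and motor genes were above 0 in both strains. Of these 13 genes, Aurkb and Bub1b in B6 and Bub1b in C3 passed 0.05.

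Bub1b, which encodes the checkpoint protein BubR1 and lies at chr2:118423947-118467328 on the plus strand (mm9), was the mitotic gene with the clearest differences. Its level was 1.49, 1.69, 1.38, 2.14 and 1.85 CPM in B6 females and 1.54, 0.795, 1.25, 1.11 and 0.828 CPM in B6 males. In C3 females it was 1.59, 0.709, 1.28, 1.05 and 1.11 CPM, and in C3 males 0.387, 0.374, 0.300, 0.404 and 0.678 CPM. The C3 males were the lowest group, below every other liver.

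In C3, Bub1b was 2.78-fold higher in females (95% interval 1.99 to 3.90, log2 1.48, SE 0.25, adjusted p = 2e-04), with within-pool log2 ratios of 1.30 to 1.68. Among males it was 2.70-fold lower in C3 than in B6 (log2 -1.43, SE 0.25, adjusted p = 0.00019). Both calls were lost without 1 liver, at a similar fold change: without C3 F 1 the sex difference in C3 was a log2 of 1.38 (adjusted p = 0.0013), and without B6 M 1 the strain difference in males was -1.34 (adjusted p = 0.0014). These comparisons share the C3 males.

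**Figure D2:**
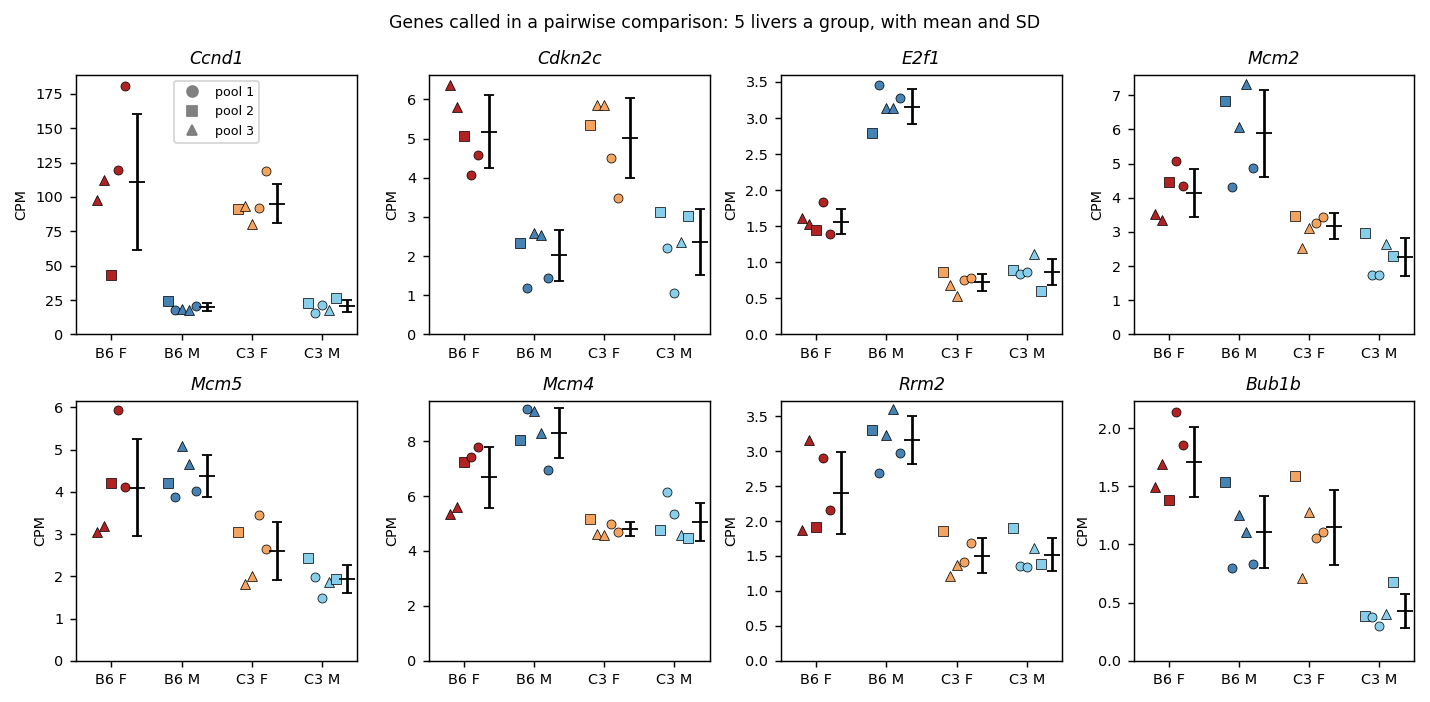
CPM of the 8 members called in at least 1 pairwise comparison, with 1 point per liver (shape marks the sequencing pool) and the mean with SD beside each group of 5. Ccnd1 and Cdkn2c are higher in the females of both strains, E2f1 is lower in C3 and highest in B6 males, and Mcm2, Mcm5, Mcm4, Rrm2 and Bub1b are lower in C3 males than in B6 males.

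Between the strains, the members that passed the test were all lower in C3. Among females 1 of 38, E2f1, met the rule, against 9.4% of all genes (4.77% lower and 4.63% higher). At an adjusted p under 0.05, 11 passed (32.9% of all genes), of which 11 were lower in C3 and 0 higher, against 15.3% and 17.7% of all genes. Among males the rule called 6 of 38, all lower in C3, against 9.64% of all genes (5.55% lower and 4.09% higher). At 0.05, 12 passed (34.5% of all genes), 12 lower and 0 higher in C3, against 17.5% and 17% of all genes. The median log2 fold change of the members was -0.50 in females and -0.65 in males, against 0.02 and 0.01 for all genes, and 5 and 7 of the 38 were above 0, against 53.4% and 52.4% of all genes.

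Replication genes made up most of the calls in males. Mcm2, Mcm4 and Mcm5 encode subunits of the hexameric helicase that unwinds DNA at the fork, and Rrm2 encodes the small subunit of ribonucleotide reductase, which makes the nucleotides. Mcm2 was at 6.83, 4.31, 6.07, 7.33 and 4.88 CPM in B6 males and at 2.98, 1.73, 1.74, 2.66 and 2.28 CPM in C3 males. Mcm5 was at 4.2, 3.89, 5.09, 4.66 and 4.02 CPM in B6 males and at 2.44, 1.99, 1.5, 1.88 and 1.93 CPM in C3 males. The groups were separate for both genes, with C3 males below all B6 males.

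Rrm2 stood at 3.30, 2.69, 3.23, 3.60 and 2.98 CPM in B6 males and at 1.9, 1.35, 1.35, 1.62 and 1.39 CPM in C3 males. Mcm4 stood at 8.05, 9.18, 9.11, 8.29 and 6.93 CPM in B6 males and at 4.76, 6.16, 5.33, 4.58 and 4.46 CPM in C3 males. These groups were separate as well. The log2 fold changes, C3 against B6 in males, were -1.41 for Mcm2 (SE 0.17, adjusted p = 2.8e-06), -1.25 for Mcm5 (SE 0.19, 4e-05), -1.07 for Rrm2 (SE 0.17, 7.4e-05) and -0.74 for Mcm4 (SE 0.11, 3.7e-05). Within pools, the log2 ratios stayed between -1.41 and -1.33 for Mcm2, -1.38 and -0.94 for Mcm5, -1.08 and -1.01 for Rrm2, and -0.92 and -0.49 for Mcm4.

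Pcna had a smaller but tight difference. In females it was at 22.9, 24.6, 19.6, 22.7 and 18.3 CPM in B6 and at 15.7, 16.9, 15.5, 14.3 and 15.7 CPM in C3. In males it was at 19.1, 19.1, 23.4, 22.3 and 18.6 CPM in B6 and at 14.7, 14.7, 15.5, 14.5 and 14.1 CPM in C3. No C3 liver reached the lowest B6 liver. The log2 fold changes of -0.47 in females (SE 0.07, adjusted p = 2.8e-05) and -0.44 in males (SE 0.07, adjusted p = 6.8e-05) passed the p threshold and lay under the fold limit, so that Pcna was not among the calls.

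Of the other replication genes, Mcm3 (log2 -0.65, adjusted p = 0.0026) and Gins2 (log2 -0.98, adjusted p = 0.032), another helicase component, were lower in C3 males at the 0.05 limit. In C3 females, Rrm2 (log2 -0.69), Mcm5 (-0.67), Mcm4 (-0.46) and the loading factor Cdc6 (-1.03) were lower at that limit. Mcm7 and Tyms, the thymidylate synthase, did not pass in either sex, with log2 fold changes between -0.13 and 0.09 and SEs of 0.07 to 0.08. Mcm7 is the host gene of Mir106b, Mir25 and Mir93. All 11 replication genes had a negative log2 fold change in males and 10 of 11 in females, and the median was -0.65 and -0.46.

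The summed level of the 11 replication genes was 69.0 to 81.2 CPM in B6 females and 57.3 to 63.1 CPM in C3 females. In males the sums were 64.6 to 86.8 CPM in B6 and 51.5 to 56.9 CPM in C3. The strains did not overlap within either sex, whereas the sexes overlapped within B6 and did not overlap within C3, where females were higher.

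For genes of mitosis the strains overlapped more. Bub1, which recruits BubR1 to kinetochores, was lower in C3 in both sexes at the 0.05 limit, with a log2 fold change of -1.14 in females (SE 0.41, adjusted p = 0.038) and -1.97 in males (SE 0.46, adjusted p = 0.0028). The C3 males had only 1 to 5 counts of it per liver. In females Aurkb, the kinase of the chromosomal passenger complex (log2 -1.22), Top2a (-0.94), Ccna2 (-0.84) and Bub1b (-0.62) were lower in C3 at 0.05. In males Kif23, a motor protein of cytokinesis (log2 -0.84), and Mki67 (-0.83) were. Mki67 was at 6.73, 6.61, 5.46, 5.28 and 4.63 CPM in B6 males and at 4.06, 4.2, 2.07, 3.28 and 4.35 CPM in C3 males, which did not overlap.

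The remaining mitotic genes did not pass 0.05 in a strain comparison: Aurka, Plk1, Cdc20, Birc5, Cdca8, Cenpe, Cenpf, Kif11 and Kif20a had log2 fold changes between -0.93 and 0.10. Their products are mitotic kinases (Aurka, Plk1), the activator of the anaphase-promoting complex (Cdc20), passenger proteins (Birc5, Cdca8), kinetochore proteins (Cenpe, Cenpf) and spindle motors (Kif11, Kif20a). Among the cyclins, Ccnb1 (log2 -0.84 in females and -1.40 in males, adjusted p = 0.15 and 0.069) and Ccnb2 (-1.07 in each, 0.066 and 0.11) had low values in C3 and Ccne1 a high value in males (0.89, 0.068), and none of them passed. Cdkn1a and Cdkn2c did not pass between the strains, with log2 fold changes between -0.06 and 0.28. The SE was 0.33 in each sex for Cdkn1a, and 0.15 in females and 0.17 in males for Cdkn2c.

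**Figure D3:**
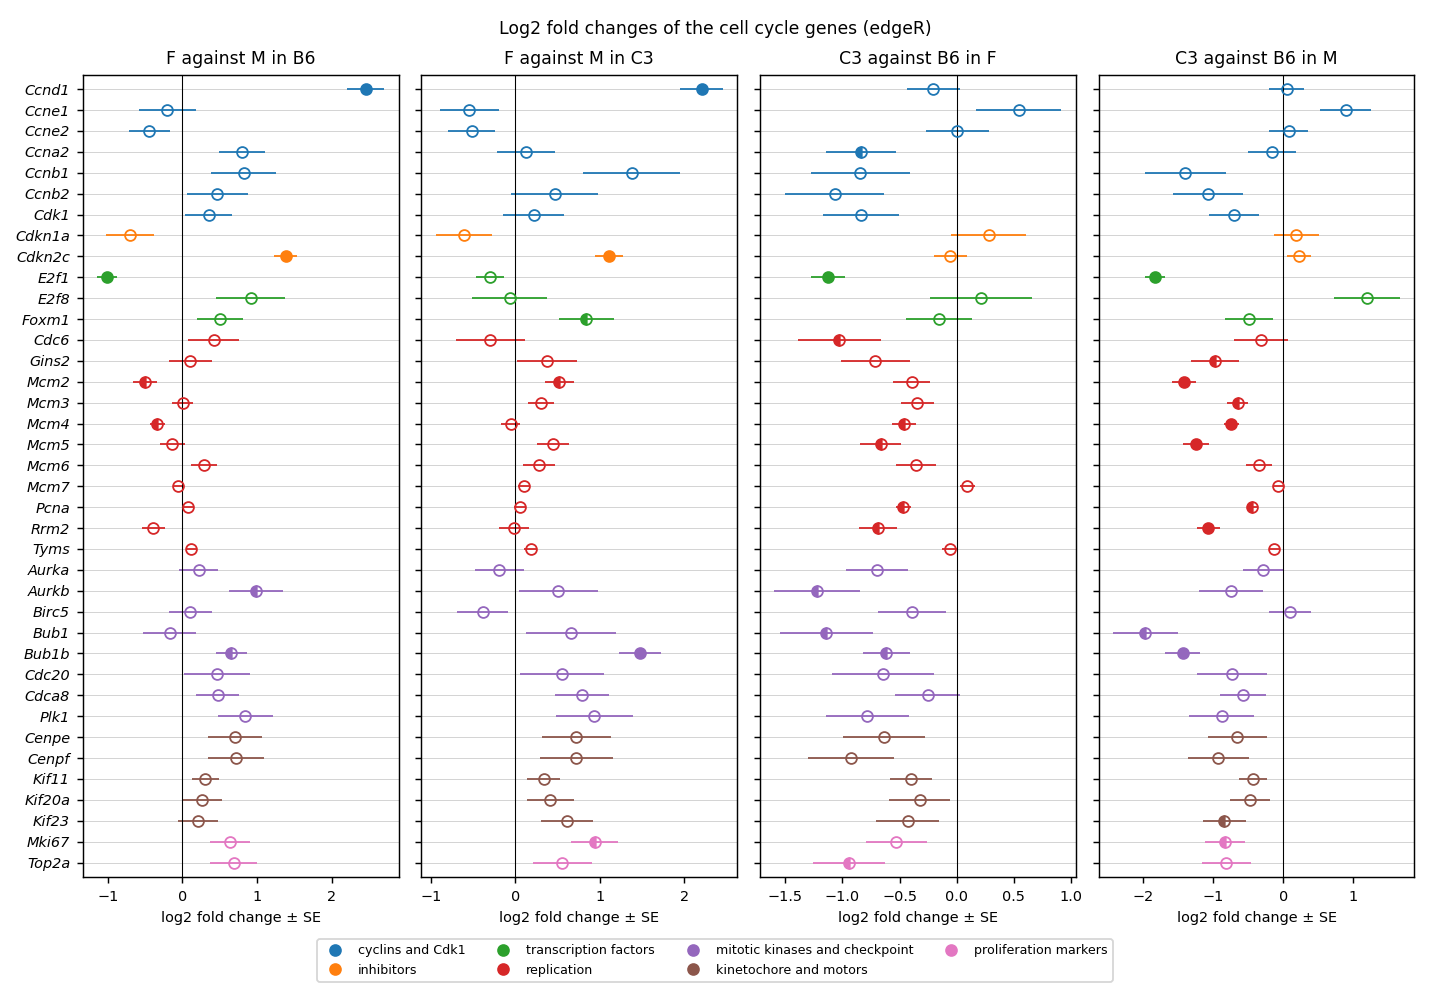
Log2 fold change with SE of each member (rows, colored by role) in the 4 pairwise comparisons; filled points were called, half-filled points had an adjusted p under 0.05 without being called, and open points did not pass. Ccnd1 and Cdkn2c stand to the right in both sex comparisons, and nearly all replication and mitotic genes lie left of 0 in both strain comparisons.

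Groups that did not overlap between the strains numbered 4 in females, E2f1, Pcna, Mcm4 and Rrm2, all lower in C3 (6.47% of all genes, against 6.35% higher). There were 9 in males, E2f1, Mcm2, Mcm4, Mcm5, Rrm2, Pcna, Bub1, Bub1b and Mki67, again all lower in C3 (8.4%, against 6.74% higher). The comparisons between strains and between sexes draw on the same 4 groups, so their results are not independent of each other.

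No member was called for a different sex effect in the 2 strains (edgeR, 0.401% of all genes), and DESeq2 and limma also called 0. At an unadjusted p under 0.05 there were 4 members (10.5%), against 16.1% of all genes. At an adjusted p under 0.05 there was 1, Mcm2 (2.96% of all genes, 1.98% in its direction). In B6 females Mcm2 was at 3.54, 3.36, 4.45, 5.07 and 4.36 CPM, mostly below the males given above, and in C3 females at 3.47, 2.53, 3.11, 3.27 and 3.45 CPM, mostly above the males.

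Its log2 fold change, female against male, was -0.50 in B6 (SE 0.16, adjusted p = 0.02) and 0.52 in C3 (SE 0.17, adjusted p = 0.024), and the interaction was 1.02 (SE 0.23, adjusted p = 0.021). The interaction missed 0.05 without the pool term (adjusted p = 0.079) and without B6 F 1 (0.05 after rounding), B6 F 2 (0.052) or B6 M 1 (0.052).

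Markers of cells other than hepatocytes differed between the same groups. The summed level of 8 Kupffer cell markers was 457 to 562 CPM in B6 females, 294 to 417 in B6 males, 300 to 439 in C3 females and 218 to 321 in C3 males. Of these 8 genes, 7 were higher in females of B6 and 6 in females of C3 at an adjusted p under 0.05, and 5 were lower in C3 in each sex. The lymphocyte markers were near the floor, with sums over 10 genes of 4.78 to 7.81 CPM in B6 females, 2.29 to 6.83 in B6 males, 3.12 to 4.80 in C3 females and 1.44 to 1.64 in C3 males. All 8 that could be tested were lower in C3 males than in B6 males at 0.05, and 7 of them were higher in C3 females than in C3 males.

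Sinusoidal endothelium (433 to 532 CPM in B6 females, 358 to 424 in B6 males, 402 to 487 in C3 females, 368 to 438 in C3 males) and stellate cells (495 to 622, 407 to 476, 408 to 444 and 345 to 388 CPM, in the same order) also had their highest sums in B6 females. Stellate markers were lower in C3 at 0.05 for 4 of 6 genes in females and 5 of 6 in males. Neutrophil markers summed to 0.603 to 1.12 CPM in B6 females, 0.583 to 1.15 in B6 males, 1.14 to 3.33 in C3 females and 0.387 to 0.749 in C3 males, and S100a9 was called higher in C3 females than in C3 males (log2 1.89, adjusted p = 0.00027). Erythroid markers summed to 3.06 to 7.44 CPM over all livers, and Klf1 was called higher in B6 females than in B6 males (log2 0.66). Of the 4 erythroid markers that could be tested, 2 were above 0 and 2 below 0 in that comparison (median log2 -0.20). Cholangiocyte markers summed to 21.6 to 43.6 CPM, and Sox9 was called lower in females of both strains (log2 -1.42 in B6 and -0.84 in C3) and higher in C3 than in B6 females (0.85). Most of the 5 cholangiocyte markers went the other way from Sox9. Between the sexes, 3 in B6 and 4 in C3 were above 0 in females, with 2 higher at 0.05 in C3. Against B6 females, 4 were below 0 in C3 females. Among 9 pericentral targets of Wnt signaling, a pathway that acts on Ccnd1 in many tissues, 0 were called between the sexes, and 4 were called lower in C3 in each sex. The part of these cell types and of Wnt signaling in the differences of the cell cycle genes was not tested.

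Between sequencing pools 7 of 38 members (18.4%) differed at an adjusted p under 0.05, against 60.1% of all genes, and the difference between these shares was not tested. Members that did not pass could still have sizeable estimates, such as E2f8 (log2 0.85, pool 1 against pool 3). Those that passed were Ccne2, Cdkn2c, Foxm1, Mcm6, Mcm7, Pcna and Mki67. For each of the calls above, the log2 ratio of group means had the same sign in all 3 pools, with 1 or 2 livers of a group in each pool.

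Relative to their level, mitotic genes differed more among the livers of 1 group than replication genes did. In CPM alone this was not so for B6 males, whose replication sums ran from 64.6 to 86.8 CPM. The summed level of 19 mitotic genes (the kinases and checkpoint, kinetochore and motor genes, the proliferation markers, Ccna2, Ccnb1, Ccnb2 and Cdk1) was 23.9, 33.7, 26.3, 47.4 and 43.8 CPM in B6 females and 24.5, 22.5, 26.6, 26.8 and 16.7 CPM in B6 males. In C3 females it was 32.3, 10.5, 15.9, 33.0 and 24.0 CPM and in C3 males 16.2, 16.1, 11.8, 15.5 and 17.6 CPM. The range of the C3 females overlapped that of every other group, and the liver at 10.5 CPM, C3 F 2, was the lowest of its group for 16 of the 19 genes. The highest B6 females (47.4 and 43.8 CPM) were of pool 1, and the lowest C3 females (10.5 and 15.9 CPM) of pool 3. In B6 males the highest livers (26.6 and 26.8 CPM) were of pool 3. The part of the pool in these sums was not tested.

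**Figure D4:**
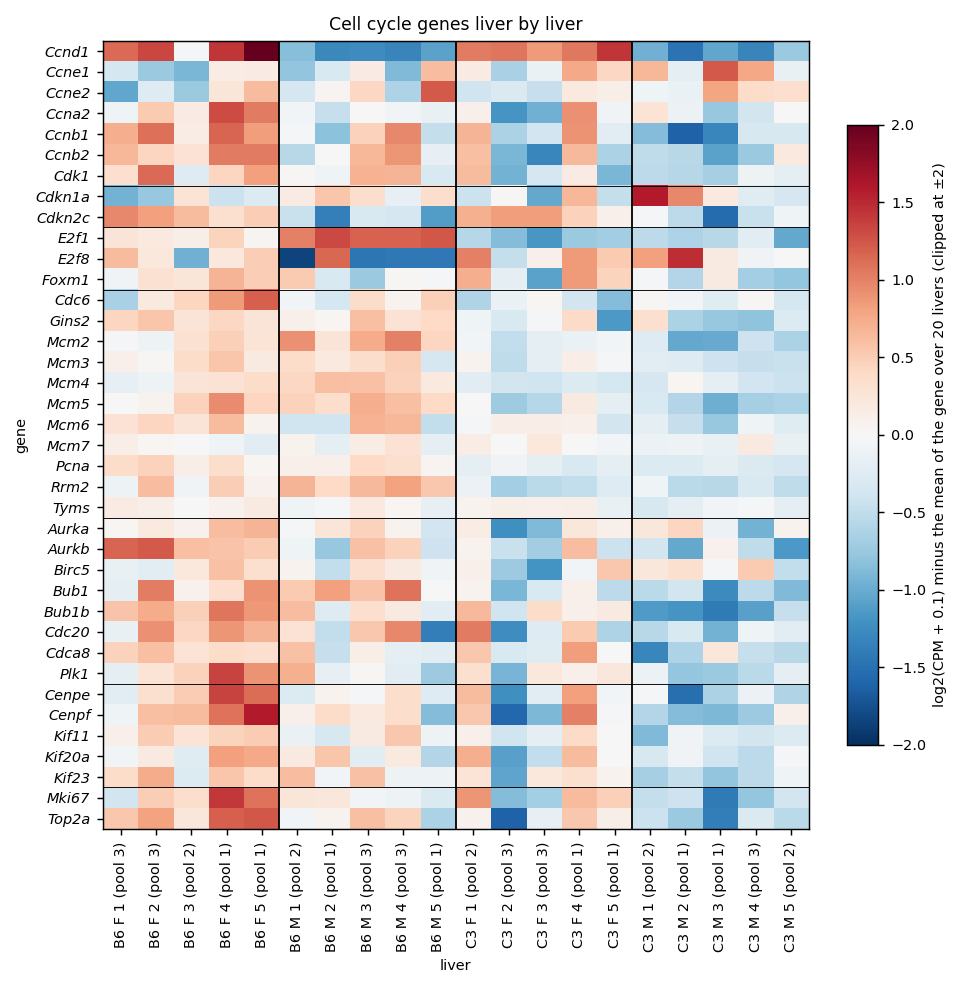
Log2(CPM + 0.1) of each member (rows) in each liver (columns, grouped by strain and sex and labelled with the pool) minus the mean of the gene over the 20 livers; red is above and blue below the mean, clipped at 2. Livers with high mitotic genes, such as B6 F 4 and B6 F 5, and low ones, such as C3 F 2 and C3 M 3, show as columns, and Ccnd1 and E2f1 show as blocks by group.

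Whether members varied together was examined with Mki67 as the reference, on deviations of log2 CPM from the group mean over the 20 livers. A permutation test within groups (100000 resamples, two-sided) was adjusted over the 37 other members. By Pearson's r, 13 members passed an adjusted p of 0.05, all with a positive r that was also positive within each pool, and by Spearman's rho 12 passed. Of the 37, 31 had a positive r. Genes outside the members were not examined in this way, so no share of all genes stands beside these counts. They do not show whether varying with Mki67 is particular to cell cycle genes.

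The closest were Ccna2 (r = 0.87, rho = 0.89, permutation p = 0.00022 and 0.00018, adjusted p = 0.002 and 0.0022), the cytokinesis motor Kif20a (r = 0.84, rho = 0.85, p = 4e-05 for each, adjusted 0.0015 and 0.0011) and the kinetochore protein Cenpf (r = 0.83, rho = 0.84, p = 0.0001 and 6e-05, adjusted 0.0018 and 0.0011). Without the 2 livers farthest from the median of Mki67, r was 0.82, 0.81 and 0.75. The replication gene Mcm5 (r = 0.82, rho = 0.74, adjusted permutation p = 0.0075 and 0.02), Aurka (r = 0.75, rho = 0.81), Plk1 (r = 0.73, rho = 0.74) and Top2a (r = 0.69, rho = 0.66) followed. Over the 13, r without those 2 livers lay between 0.43 and 0.82.

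By role, 5 of 8 mitotic kinase and checkpoint genes, 3 of 5 kinetochore and motor genes, 2 of 7 cyclins and Cdk1, and 2 of 11 replication genes passed. Pcna (r = -0.33, rho = -0.23, permutation p = 0.19 and 0.36), Mcm7 (r = -0.27, rho = -0.27, p = 0.2 and 0.23) and Tyms (r = -0.25, rho = -0.20, p = 0.31 and 0.4) had negative values and did not pass. Neither did Ccnd1 (r = 0.32, rho = 0.40, permutation p = 0.29 and 0.11) or E2f1 (r = 0.25, rho = 0.30, p = 0.36 and 0.25).

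Mki67 itself was higher in pool 1 than in pool 3 (log2 0.70, adjusted p = 0.019). With the pool removed along with the group, 21 members passed by Pearson's r. Among them were the replication genes Mcm2 (r = 0.58, adjusted permutation p = 0.033), Mcm3 (0.57, 0.014), Mcm5 (0.76, 0.0011), Mcm6 (0.64, 0.01) and Rrm2 (0.69, 0.013). In that fit r was 0.14 for Pcna and 0.35 for Mcm7, and neither passed. The counts by role and the negative values above therefore hold only without the pool removed. With the group alone removed, the count was sensitive to single livers and fell to 7 without B6 M 5 and to 8 without B6 F 4, C3 F 1 or C3 F 2.

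**Figure D5:**
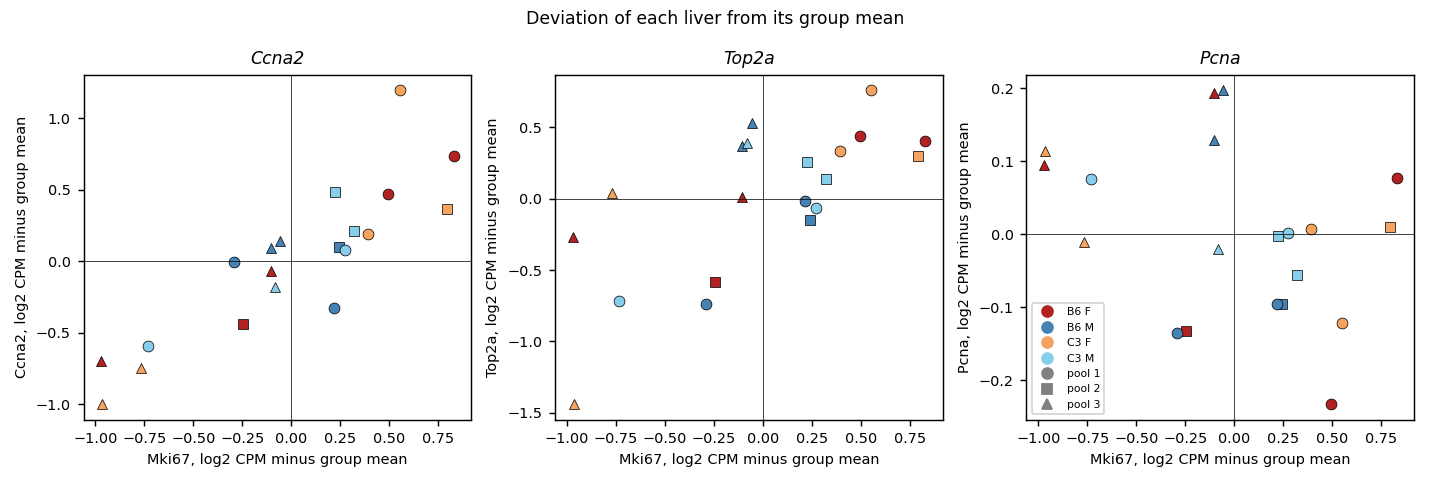
Deviation of each liver from its group mean in log2 CPM, for Mki67 (horizontal axis) against Ccna2, Top2a and Pcna (vertical axes); color marks the group and shape the sequencing pool. Ccna2 and Top2a rise with Mki67 across livers (r = 0.87 and 0.69), and Pcna does not (r = -0.33).

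The promoters of the members were read for the letters of the elements named above. RefSeq promoters on GRCm38.p6, a newer build than the mm9 of the expression tables and of a C57BL/6J mouse, were found for 30 of the 38, each 300 bases long with 250 before and 50 after the start of a RefSeq transcript. All 30 were placed in the mm9 genome by their sequence. For 26 of them a window held the 5′ end of the gene as the deposited coordinates give it, and for Mcm3, Cdc6, E2f1 and E2f8 none did. Ccnd1, Ccne2, Ccna2, Foxm1, Gins2, Mcm4, Aurkb and Kif20a were not among them. Both strands were searched for the box CCAAT, for TTTGAA as the core of the homology region, and for 4 forms of the E2F site. These were TTGGCGC as the first form, TTCCCGC as the second, TTGCCGC as the third and TTCGCGC as the fourth, and the first and the fourth can overlap on opposite strands.

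CCAAT was found in 24 of 30 members (80.0%) and in 37.4% of all promoters. TTTGAA was found in 14 of 30 (46.7%), against 17.9% of all promoters, and an E2F form in 11 of 30 (36.7%), against 9.57%. The roles divided here: 12 of 16 mitotic members (75.0%) but 1 of 9 replication members held TTTGAA, and 6 of 9 replication members but 3 of 16 mitotic members held an E2F form. CCAAT together with TTTGAA stood in 12 of 16 mitotic members, against 6.95% of all promoters. Over the 26 members alone, a restriction made after these values were seen, the numbers were 21 for CCAAT, 13 for TTTGAA and 8 for an E2F form, and 4 of 7 replication members held an E2F form. The 30 members had 33 windows, and a member held an element if any of its windows did. All promoters were counted window by window, so the 2 shares are of unlike units. Cdkn2c held CCAAT only in a window without its deposited 5′ end. A match of letters is a description and not a binding site.

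Shown are the 3 members with the most matches, Top2a, Cdk1 and Mcm6, to let mitotic and replication promoters be compared. E2f1, the gene with the smallest adjusted p, is not shown because its RefSeq start lies 466 bases inside the gene as measured, and the whole window with it. Each runs 5′ to 3′ on the strand of its gene, the minus strand in all 3, with matches on either strand in capitals (GRCm38.p6). The windows are chr11:99024140-99024439 (Top2a), chr10:69352863-69353162 (Cdk1) and chr1:128359656-128359955 (Mcm6).
Top2a: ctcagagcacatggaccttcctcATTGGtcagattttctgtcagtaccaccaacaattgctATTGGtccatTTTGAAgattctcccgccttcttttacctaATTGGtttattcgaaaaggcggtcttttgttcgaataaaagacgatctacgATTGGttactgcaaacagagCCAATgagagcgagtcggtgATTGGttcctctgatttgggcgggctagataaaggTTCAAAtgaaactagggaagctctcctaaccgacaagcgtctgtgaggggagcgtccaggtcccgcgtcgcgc
Cdk1: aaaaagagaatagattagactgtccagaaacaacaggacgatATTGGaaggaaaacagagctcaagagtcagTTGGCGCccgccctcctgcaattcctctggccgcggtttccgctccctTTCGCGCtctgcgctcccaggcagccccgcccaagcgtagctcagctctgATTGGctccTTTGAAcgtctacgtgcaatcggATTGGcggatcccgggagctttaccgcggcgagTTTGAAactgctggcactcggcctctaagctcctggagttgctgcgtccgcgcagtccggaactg
Mcm6: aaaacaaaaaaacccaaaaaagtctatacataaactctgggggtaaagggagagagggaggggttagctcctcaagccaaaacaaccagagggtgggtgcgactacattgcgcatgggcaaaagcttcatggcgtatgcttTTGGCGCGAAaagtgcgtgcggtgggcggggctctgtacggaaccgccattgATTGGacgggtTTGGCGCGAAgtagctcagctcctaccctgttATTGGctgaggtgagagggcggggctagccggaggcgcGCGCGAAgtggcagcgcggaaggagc

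The Top2a window held 6 CCAAT and 2 TTTGAA matches, 5 of the former on the opposite strand (read there as ATTGG), and no E2F form. Its matches to TTTGAA began 179 and 23 bases before the start. The Cdk1 window held 3 CCAAT, 2 TTTGAA and 2 E2F matches, and that of Mcm6 2 CCAAT and 5 E2F matches, 2 pairs of which overlap, with no TTTGAA.

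Of 108 further genes on lists of the pathway (other cyclins and kinases, inhibitors, pocket proteins and E2F factors, replication, mitosis and p53 targets), 104 could be tested. In B6, 2 were called higher and 3 lower in females, which is 4.81% of the 104, against 6.34% of all genes. Cdkn1c, which encodes the inhibitor p57, was at 3.02 ± 0.89 CPM in females and 1.21 ± 0.34 in males (SD, n = 5, log2 1.31, edgeR adjusted p = 1.4e-07), and Tk1, thymidine kinase, differed by a log2 of 0.67. Mcm10, which activates the helicase, went the other way, with 18.8 ± 2.9 CPM in females and 53.7 ± 12.0 in males (log2 -1.49, edgeR adjusted p = 4.7e-07). Spc24, of the outer kinetochore (log2 -1.02), and E2f2 (log2 -0.99) were the other two.

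In C3, 2 were higher and 1 lower in females, which is 2.88% of the 104, against 6.9% of all genes. Cdkn1c (log2 1.25) and Mcm10 (log2 -1.80, 26.4 ± 5.6 CPM in females and 88.1 ± 10.5 in males) were called with the same sign as in B6, and Smc2 of condensin (log2 0.54) was added. At an adjusted p under 0.05, 19 were higher and 13 lower in B6 females and 22 higher and 15 lower in C3 females. These are 30.8% and 35.6% of the 104, against 34.6% and 40% of all genes. The interaction called 0 of the 104 by edgeR, at the strict rule and at 0.05, against 0.401% and 2.96% of all genes.

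Between the strains, 1 was higher and 3 lower in C3 females, and 2 were higher and 6 lower in C3 males. These are 3.85% and 7.69% of the 104, against 9.4% and 9.64% of all genes. Pttg1, which encodes securin, had the greatest difference: 20.7 ± 0.6 CPM in B6 females against 1.59 ± 0.45 in C3 females (log2 -3.73, edgeR adjusted p = 3e-14, n = 5), and 22.0 ± 0.6 in B6 males against 1.40 ± 0.13 in C3 males (log2 -4.00, adjusted p = 2.2e-14). Ccnf, cyclin F, was lower in C3 by a log2 of -1.89 in females and -1.66 in males, and the kinesin Kif18a by -1.23 and -1.87. In females the only gene higher in C3 was the helicase component Gins3 (log2 0.89). In males Spc24 (-0.90), Cdk6 (-0.66) and the chromatin assembly factor Chaf1a (-0.99) were lower, and Mcm10 (0.78) and E2f6 (0.50) were higher. At 0.05, 7 were higher and 16 lower in C3 females, and 6 higher and 23 lower in C3 males, which is 22.1% and 27.9% of the 104, against 32.9% and 34.5% of all genes.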

How the data were processed

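Strand-specific, ribosomal RNA-depleted libraries of 20 livers were sequenced as paired ends in 3 pools. The deposited counts are unnormalized read pairs per gene: the authors trimmed adapters with cutadapt 1.9.1, aligned to mm9 with STAR 2.5.1b and counted on RefSeq genes with featureCounts (Subread 1.5.0-p1), leaving out multimapping and multi-overlapping reads. The genome is that of a B6 mouse, and how well C3 reads align to it was not tested. Reads shared with the processed copies Ccnb1-ps, Ccnb2-ps, Pcna-ps1, Pcna-ps2 and Tyms-ps would not be counted. The authors also deposited TPM, whose gene length is not defined in the sources used here. Headers of the symbol and identifier columns are exchanged and were read by content. No value of the authors' own comparisons was used.

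Counts were fitted in R 4.3.3 with edgeR 4.0.16 (filterByExpr, TMM, quasi-likelihood test) by group and pool over all 20 livers, as in the study's methods, with Benjamini-Hochberg adjustment over the 13704 genes tested. A gene was called at an adjusted p under 0.001 and a log2 fold change over 0.5 in either direction. CPM use TMM-scaled library sizes, and covariation uses log2 CPM with a prior count of 2 (numpy 2.4.6). A count of 3 corresponds to 0.0641 to 0.110 CPM at these depths, for counting error only. On simulated counts of 13563 genes for F against M in B6, 59 of 100 genes changed 2-fold and 100 of 100 changed 4-fold were recovered, with 0 false calls. The simulation gave all genes the same dispersion, had no pool effect and changed no gene of very low count. Its rates therefore do not carry over to the members of low count or wide spread. DESeq2 1.42.0, limma 3.58.1 on log2(TPM + 1) and log2(TPM + 0.1), other scalings, no filter, no pool term, a replicate block, single comparisons and leaving out each liver were alternatives. The p-values measure the spread between mice.

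All 38 members were named, with further pathway genes where called (up to 8 per comparison by smallest p), and promoters by smallest adjusted p and most motif matches, leaving out E2f1, whose window lies inside the gene. The members and lists were chosen with earlier results of these data known. RefSeq promoters were matched by symbol and gene identifier for 30 of 38 members.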

Additional observations from a re-analysis of the deposited data

Results flagged for a closer look

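In 7 of the 152 sets of 5 livers (38 genes in 4 groups), 1 liver stood apart from the other 4 by Dixon's test at the 95% level, which chance does for about 1 in 20 sets. E2f8 was at 10.7 CPM in B6 M 2, against 1.25 to 1.72 in the other B6 males, and this liver decides the strain comparison of E2f8 in males as given above. Mcm7 was at 16.8 CPM in C3 M 4, against 13.4 to 13.9. Tyms was at 5.43 CPM in C3 F 5, below the 6.34 to 6.58 of the other C3 females. In C3 M 5, Bub1b was at 0.678 CPM against 0.300 to 0.404, and Cenpf at 0.999 CPM against 0.449 to 0.580. In C3 F 2, the liver with the lowest mitotic sum, Plk1 was at 0.0665 CPM, which is 3 counts, against 0.240 to 0.297, and Kif23 at 0.332 CPM against 0.840 to 1.02.

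Mcm2 had a log2 interaction of sex and strain of 1.02 (edgeR adjusted p = 0.021), which passed 0.05 without meeting the rule for calls. It missed 0.05 without the pool term (adjusted p = 0.079) and without any 1 of the livers B6 F 1, B6 F 2 and B6 M 1.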

How the results depend on the processing

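The replicate numbers were not taken to pair the livers. The correlation of deviations between livers of the same number ran from -0.46 to 0.63 over the 4 comparisons. With the pool removed it ran from -0.20 to 0.32. These values do not decide whether the numbers pair the livers. With the replicate block, 3, 3, 1, 6 and 0 members were called (F against M in B6 and in C3, C3 against B6 in F and in M, interaction), the counts without it, and 845, 933, 1222, 1263 and 40 genes in all. At an adjusted p under 0.05 alone the counts were 7, 6, 11, 12 and 1. For F against M in C3, fitting only the groups compared gave 1. For C3 against B6 in females, DESeq2 (adding Rrm2), limma on log2(TPM + 1) and on log2(TPM + 0.1), and upper quartile scaling (each adding Pcna) gave 2. Leaving out 1 liver gave 3 to 3, 2 to 3, 1 to 2 (2 without B6 F 5, adding Pcna), 5 to 7 and 0 to 0 calls, and 7 to 15 members varying with Mki67, which became 21 with group and pool removed. In C3 against B6 males, 7 were called without B6 M 2 (adding E2f8) or B6 M 5 (adding Mcm3).

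Values of single genes were followed through all alternatives, including fits without a liver of a group not compared, which are a weak check. Among them, 392 kept their direction and their side of the threshold, 13 kept the direction but missed it, and none reversed. Beyond those given above, Bub1b had log2 fold changes of 0.45 and -0.41 on log2(TPM + 1), Cdkn2c and Bub1b in C3 had adjusted p of 0.0014 and 0.0013 and Mcm4 in males 0.0011 with only the groups compared. Bub1b averaged 0.659 TPM in C3 females and 0.228 TPM in C3 males, less than the 1 added. On log2(TPM + 0.1) its sex difference in C3 was a log2 of 1.26. The cause of the higher adjusted p was not tested. Upper quartile scaling moved the median of all genes by less than 0.1. Low counts limit the mitotic genes most.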
